A study of Rattus norvegicus with 20 samples.

Results

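Bladder epithelial cells were compared with epithelial cells of 3 other tissues that carry no hair, to ask which genes set bladder apart both before and after the cells had lived in skin. The bladder cells made up 4 of the 20 RNA-seq samples, chosen by their labels, and the trachea, vagina and thymus cells another 12, while the 4 whisker follicle samples were not used. All cells came from SD-Tg(CAG-EGFP)4 Osb rats, in which EGFP is driven in all cells by the CAG promoter, and were grown on irradiated mouse 3T3-J2 feeder cells and sorted on EGFP. For each tissue, 2 samples were of cells cultured before transplantation and 2 were of the same kind of cells recovered from transplants into newborn mouse skin carried on nude mice and cultured again. The bladder cells were bulk cultures of the dome of PN201 (postnatal day) donors, the trachea and vagina cells bulk cultures of PN200 donors, and the thymus cells a frozen stock of PN137. For thymus cells before transplantation the labels speak of a bulk culture as well as of a clone. The study does not state that the 2 samples of a group came from separate animals or transplants. The p-values thus measure only the spread between these samples, which within a group may be technical. Where the 12 other samples are pooled, that spread includes the differences among their 3 tissues. Tissue, donor and culture cannot be told apart.

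The bladder is lined by urothelium, a layered epithelium with basal, intermediate and large superficial umbrella cells that holds back urine. Umbrella cells cover themselves with plaques of uroplakins, contain simple epithelial keratins and seal their borders with claudins. The transcription factors Foxa1, Pparg and Gata3 act in urothelial differentiation, and retinoic acid signalling is needed for its formation and repair. Trachea and thymus epithelium derive from endoderm of the foregut and pharynx, as the bladder derives from endoderm of the hindgut, whereas the vagina has Müllerian and urogenital sinus parts.

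The depth on genes ranged over the 16 samples from 20723083 to 29824855 counts, with a median of 24581680. Levels are given in CPM, the count scaled to library size with TMM factors, and 3 counts, taken as the floor, came to between 0.0988 and 0.144 CPM. This floor covers counting error only. Gene names could be given to 1888 of the 13192 genes tested, and the names come from the study's lists of genes that differed from whisker cells, so shares among named genes are read against other named genes. The bladder donor or donors differed from the others in sex-linked RNA. Eif2s3y, a Y-linked translation factor gene, had 2171 to 3349 counts in each of the 4 bladder samples and 0 to 2 counts in each of the 12 others, and Ddx3, an RNA helicase gene whose symbol RefSeq gives to an autosomal entry and also lists as an older name of a Y-linked one, had 2059 to 3057 against 0 to 3. Donor sex and tissue thus cannot be told apart in any result below. In bulk samples, fewer cells of a type and less RNA per cell cannot be told apart either.

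Bladder cells were set apart in both rounds by more genes that were higher than lower, among them the lipid-binding protein gene Fabp4, the pioneer transcription factor gene Foxa1, the keratin genes Krt18 and Krt19, the retinoic acid enzyme gene Aldh1a3 and several chemokine genes. Isl1, which encodes a homeodomain factor of pharyngeal and other lineages, was lower. A gene was called when its adjusted p was under 0.05 and its fold change reached 2, here by limma voom with round in the model and Benjamini-Hochberg adjustment over all genes. In that fit 1079 genes (8.18% of those tested) were higher and 187 (1.42%) lower in the 4 bladder than in the 12 other samples. Among named genes, 348 (18.4%) were higher and 51 (2.7%) lower. The median log2 difference over all genes was -0.0039. The total of 1266 calls took the 2 samples of a group as independent. It fell to 525 with the 2 treated as correlated (estimated correlation 0.86) and to 116 with their counts summed into 8 libraries, and to 825 without the first bladder sample before transplantation. The number of lower genes moved more than that of higher ones: 51, 9 and 90 were lower in these 3 readings beside 474, 107 and 735 higher, while DESeq2 called 444 lower and 887 higher, and a mean for each group averaged over rounds gave 590 lower and 1467 higher.

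The genes named here include 56 called in this fit that are named for their list, their size or after their values were seen. Of the 56, 12 stayed called under each of the 28 alternatives, the summed counts included. Beside Eif2s3y and Ddx3 these were Fabp4, Capn8, Foxa1, Adcy8, Calcb, Gbp5, Cxcl11, Lgals4, Card9 and Slc6a14. No other of the 56 stayed called with summed counts in the same fit. There Krt19 (adjusted p = 0.22), Krt18 (0.16), Aldh1a3 (0.082), Piezo2 (0.16), Isl1 (0.21) and Duox1 (0.16), among others, lost their calls. The 12 are described below with their neighbours by function.

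The difference was asked again within each round against the mean of the 3 other tissues, in a fit that gave each of the 8 groups its own mean. Before transplantation 1685 genes (12.8%) were higher and 981 (7.44%) lower in bladder, and in recovered cells 1404 (10.6%) were higher and 484 (3.67%) lower. Among named genes the shares were 28.0% higher and 15.5% lower before transplantation and 24.0% and 7.57% in recovered cells. In both rounds 797 genes (6.04%) were called higher, which was 47.3% of the genes higher before transplantation and 56.8% of those higher in recovered cells. Lower in both were 203 genes (1.54%), 20.7% and 41.9% of the respective lists. A further 41 genes were higher before and lower after transplantation, and 100 were lower before and higher after. Of the 1079 genes higher in the pooled comparison, 697 were also called in both rounds, and the 2 readings share their samples.

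Against single tissues the distance depended on the round. Before transplantation, bladder differed from trachea in 2044 genes (15.5%), from vagina in 3372 (25.6%) and from thymus in 3589 (27.2%). In recovered cells the counts were 2407 (18.2%) for trachea, 2591 (19.6%) for vagina and 2143 (16.2%) for thymus. Trachea thus gave the fewest calls before transplantation and thymus after it, as the plot of calls by tissue shows. The strictest reading asks for the same direction against each tissue in each round. This left 239 genes (1.81%) higher and 41 (0.311%) lower, of which 71 (3.76% of named genes) and 11 (0.583%) have a name. Each of the 239 was also higher in the pooled comparison, and 31 of the 41 were lower there. The CPM of all 4 bladder samples lay above those of all 12 others for 660 genes (5.0%), of which 200 were among the 239. They lay below for 415 genes (3.15%), of which 32 were among the 41. Among named genes, 148 (7.84%) lay above.

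**Figure D1:**
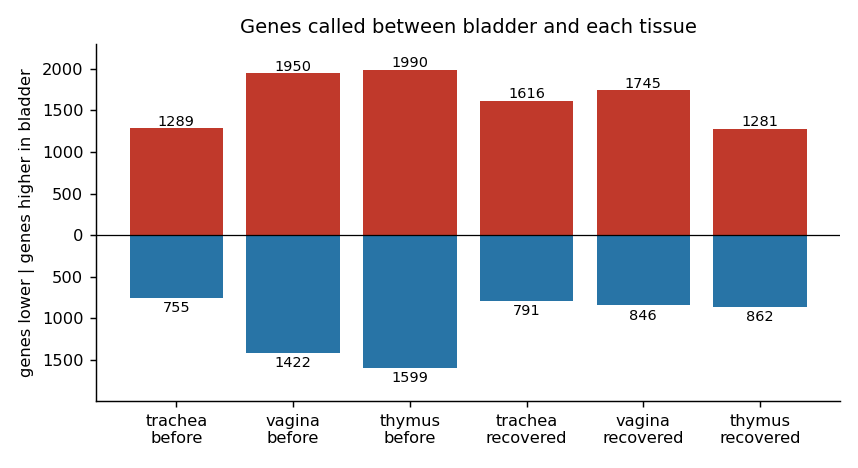
Number of genes called in each of 6 comparisons of the 2 bladder samples with the 2 samples of another tissue in the same round; bars above 0 count genes higher in bladder and bars below 0 genes lower in bladder. More genes were higher than lower in each comparison, with the fewest calls against trachea before transplantation and against thymus in recovered cells.

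The keratin genes Krt18 and Krt19 were higher in bladder cells, while the 3 uroplakin and umbrella cell genes that could be named, of 13 listed, were not called in the pooled comparison. Of the 3 named simple epithelial keratins, 2 were higher there and all 3 in each round. Among all named genes 18.4% were higher in the pooled comparison, 28.0% before transplantation and 24.0% in recovered cells. Upk1b, which encodes the tetraspanin uroplakin 1b, was at 168 and 193 CPM in bladder cells before transplantation and at 142 and 135 CPM in recovered ones. The 12 other samples ranged from 0.38 CPM in recovered vagina cells to 165 CPM in thymus cells, so the groups overlapped. Its log2 difference was 2.46 ± 1.04 (SE, adjusted p = 0.105). Against the mean of the other tissues it was called in recovered cells (3.92) but not before transplantation, and the difference between rounds was 2.93 ± 0.19 (adjusted p = 8.1e-08). Psca, a surface antigen gene of superficial urothelium, was at 22.5 to 57.5 CPM in bladder and at most 23.7 CPM elsewhere, with a log2 difference of 1.47 ± 0.54 (adjusted p = 0.065). Upk3bl, a uroplakin-like gene, was at 12.3 to 28.3 CPM in bladder, inside the range of 0.633 to 109 CPM of the others. The labelled tissue was thus checked against few of its defining markers, since Upk1a, Upk2, Upk3a, Krt20, Pparg and Gata3 could not be paired with an identifier and are not analysed here.

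Krt19, the smallest type I keratin, was at 862 and 994 CPM in bladder cells before transplantation and at 471 and 417 CPM in recovered cells. The highest of the other samples was a trachea sample before transplantation with 278 CPM, and the lowest a recovered vagina sample with 0.675 CPM. No bladder sample overlapped with them, and the log2 difference was 4.95 ± 1.08 (adjusted p = 0.0043). Krt18, the partner of keratin 8, was at 381 and 292 CPM before and at 24.3 and 22.5 CPM after transplantation. Trachea cells before transplantation had 72.8 and 74.7 CPM and thus lay above the recovered bladder cells, while the other 10 samples had at most 7.76 CPM. The log2 difference of Krt18 was 3.94 ± 0.75 (adjusted p = 0.0018), and in its own round bladder was higher than each tissue. Krt8 was higher than the mean of the other tissues in both rounds (1.85 and 2.67 log2), but its pooled difference of 2.40 ± 1.01 did not pass (adjusted p = 0.10). Recovered bladder cells had 277 and 283 CPM of Krt8 and recovered trachea cells 244 and 258 CPM. Reads shared with processed copies of these keratins were not counted, so their levels are uncertain to that extent.

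Neither of the 2 named suprabasal keratins was called in the pooled comparison. Krt10, the keratin of differentiating epidermis, was at 1.58 and 1.65 CPM in bladder cells before transplantation and at 236 and 224 CPM in recovered ones. It was lower than the mean of the other tissues before (-1.43) and higher after (3.77), where recovered vagina cells had 324 and 340 CPM. Krt4, a keratin of moist stratified epithelia, was at 16.3 and 70 CPM before and at 304 and 274 CPM after transplantation. Both genes changed their difference between rounds, by 5.21 ± 0.30 and 3.69 ± 0.47 log2 (adjusted p = 2.6e-08 and 3e-05).

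**Figure D2:**
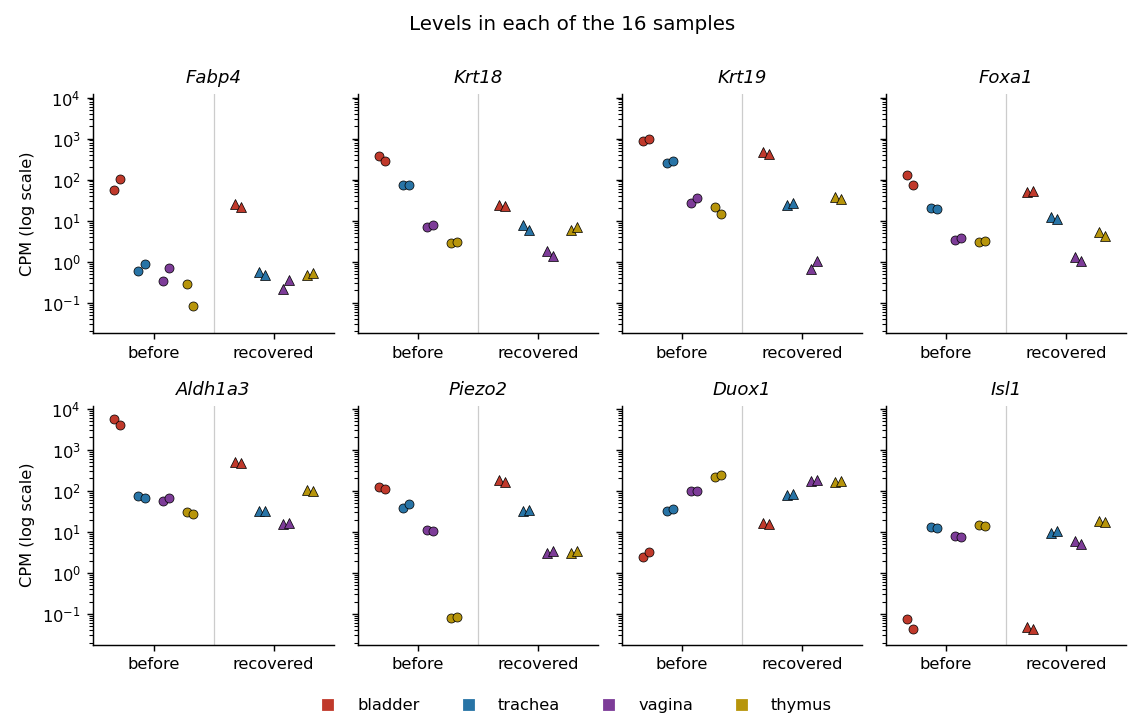
CPM on a log scale in each of the 16 samples for 8 genes; circles are cells before transplantation, triangles recovered cells, and colours the tissues. Bladder samples lie above all other samples for Fabp4, Krt19, Foxa1, Aldh1a3 and Piezo2 and below them for Duox1 and Isl1, while recovered bladder cells lie below trachea cells before transplantation for Krt18.

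Among transcription factors, Foxa1 and Isl1 stood on opposite sides. Foxa1 (ENSRNOG00000009284), which opens chromatin for nuclear receptors in endodermal organs, was at 129 and 74.8 CPM before and 51.3 and 52.9 CPM after transplantation. Trachea cells came next with 11 to 20.2 CPM, and vagina and thymus cells had at most 5.33 CPM. The groups did not overlap, and the difference was 3.88 ± 0.46 log2 (adjusted p = 3.3e-05), with 4.02 before transplantation and 3.71 in recovered cells. Isl1 (ENSRNOG00000012556), a LIM homeodomain factor gene, had 1 to 2 counts in each bladder sample and 142 to 521 counts in each of the others. The 4 bladder samples held 5 counts together and the 12 others 3450, a ratio of 214 (95% exact interval 91.7 to 660, for counting error only). Dlx1, a distal-less homeobox gene, was lower in all 6 comparisons, with 0.0375 to 0.521 CPM in bladder and 0.351 to 4.87 CPM elsewhere, and its pooled difference missed the threshold (adjusted p = 0.051).

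Of 29 named members of transcription factor families, 6 were higher and 3 lower in the pooled comparison, where 18.4% of all named genes were higher and 2.7% lower, and their median log2 difference was 0.18, beside 0.24 over all named genes. Before transplantation 11 were higher and 13 lower (28.0% and 15.5% of named genes), and in recovered cells 11 were higher and 7 lower (24.0% and 7.57%). The urothelial factor list held 5 named genes of 17, of which Foxa1 and Tbx3 were higher. Tbx3, a T-box repressor gene, was at 33.6 to 45.6 CPM in bladder. Vagina cells had 22.8 to 37.9 CPM of Tbx3 and so overlapped with bladder, and its call (2.54 ± 0.74, adjusted p = 0.022) was lost with edgeR (adjusted p = 0.21), with correlated samples (0.069) and without the first or the second bladder sample before transplantation (0.069 and 0.058). Ehf, an epithelial ETS factor gene, was at 274 to 381 CPM in bladder and up to 344 CPM in vagina cells and did not pass (adjusted p = 0.074). Of 39 Hox genes 3 could be named. Hoxb3 was at 10.9 to 11.9 CPM in the 4 bladder samples and at most 5.93 CPM in the others, with a difference of 2.70 ± 0.47 log2 (adjusted p = 0.00087). Hoxb4 was at 4.69 to 6.27 CPM, and trachea cells before transplantation reached 4.96 CPM. Its call (1.90 ± 0.54, adjusted p = 0.019) was lost with correlated samples (0.12), with edgeR (0.068) and without either recovered bladder sample (0.068 and 0.058). Hoxa3 was highest in thymus cells, at 9.34 to 10.4 CPM, and at 0.488 to 1.15 CPM in bladder.

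Genes listed for the other tissues were uneven in bladder cells. Of the 5 named thymic and pharyngeal genes 0 were higher and 2 lower in the pooled comparison, beside 18.4% and 2.7% of named genes. Before transplantation 1 was higher and 3 lower (28.0% and 15.5% of named genes). In recovered cells 2 were higher and 2 lower (24.0% and 7.57%). Isl1 was lower, as given above. Eya1, a transcription cofactor gene, was at 3.97 to 7.17 CPM in bladder. This overlapped with thymus cells at 6.92 to 47.2 CPM and lay above trachea and vagina cells with at most 0.664 CPM. Tbx1 was at 3.42 to 9.55 CPM in bladder and 0.88 to 13.9 CPM elsewhere, and Aire was under 1 CPM in each bladder sample. Of the 3 named vaginal and Müllerian genes 0 were higher and 1 lower in the pooled comparison and before transplantation. In recovered cells 1 was higher and 1 lower, and the shares of named genes are those just given. Emx2 was lower in the pooled comparison, at 2.69 to 8.57 CPM against 7.64 to 36.0 CPM (-1.80 ± 0.45, adjusted p = 0.01). Its adjusted p was 0.052 with correlated samples and 0.066 without the first bladder sample before transplantation. Esr1, the oestrogen receptor gene, was at 0.998 to 2.54 CPM in bladder and at 20.7 and 17.3 CPM in vagina cells before transplantation. No named gene was on the list for airway epithelium.

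Some fatty acid handling and retinoid genes were higher in bladder cells. The PPAR gamma list held 7 named genes, of which 3 were higher and 0 lower in the pooled comparison and in each round, beside 18.4% higher and 2.7% lower among all named genes in the pooled one. The shares of named genes within rounds were 28.0% and 15.5% before transplantation and 24.0% and 7.57% in recovered cells. Fabp4 (ENSRNOG00000010805), an intracellular fatty acid carrier and a target of PPAR gamma, was at 54.8 and 102 CPM before and 25.7 and 22.0 CPM after transplantation. Each of the 12 other samples had less than 1 CPM, with a highest value of 0.858 CPM. The difference was 6.70 ± 0.41 log2 (adjusted p = 3.6e-08), the largest after Eif2s3y and Ddx3 among the 15 higher genes named by size. Angptl4, a secreted inhibitor of lipoprotein lipase, was at 11 and 7.90 CPM and then 3.16 and 2.60 CPM, with 2.62 CPM in the highest other sample, and differed by 3.85 ± 0.53 (adjusted p = 0.00012). Cpt1a, the gate of fatty acid entry into mitochondria, was at 203 and 195 CPM and then 59.4 and 59.1 CPM, where thymus cells had 63.6 to 75.1 CPM. Its difference of 1.91 ± 0.48 (adjusted p = 0.0099) no longer passed without the first bladder sample before transplantation (0.055). Acsl1, Acsl5 and Fabp5 were not called.

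Aldh1a3 (ENSRNOG00000052070), which makes retinoic acid from retinal, was at 5561 and 4102 CPM in bladder cells before transplantation and at 497 and 465 CPM in recovered cells. No other sample exceeded 104 CPM. The difference was 4.99 ± 0.68 log2 (adjusted p = 0.00012), and it shrank between rounds from 6.59 to 3.70, a change of -2.90 ± 0.14 (adjusted p = 7e-09). Cyp26b1, which degrades retinoic acid, moved the other way, from 20.8 and 25.0 CPM to 106 and 99.1 CPM. It was not called before transplantation and was 1.79 log2 higher in recovered cells, and its pooled call (1.16 ± 0.37, adjusted p = 0.037) was lost with correlated samples (0.13) and without the second bladder sample before transplantation or either recovered one (0.051, 0.15 and 0.14). Crabp2, which carries retinoic acid to the nucleus, was at 265 to 336 CPM in bladder and up to 461 CPM in thymus cells. Aldh1a1, a sister enzyme of Aldh1a3, was at 1.09 to 1.95 CPM in bladder and highest in trachea cells, at 12.3 to 15.8 CPM. It was lower than the mean of the other tissues in both rounds (-1.71 and -1.27 log2) and not called in the pooled comparison. Dhrs3, a retinal reductase gene, was lower before transplantation (-1.24 log2) and not called in recovered cells. Of the 5 named retinoid genes, 2 were thus higher and 0 lower in the pooled comparison (18.4% and 2.7% of named genes), 1 higher and 2 lower before transplantation (28.0% and 15.5%) and 3 higher and 1 lower in recovered cells (24.0% and 7.57%).

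Among barrier genes, the claudin genes Cldn4 and Cldn23 were higher in bladder cells in the pooled comparison. Of 8 named claudin and tight junction genes 3 were higher and 0 lower in the pooled comparison, beside 18.4% and 2.7% of all named genes. Before transplantation 2 were higher and 1 lower (28.0% and 15.5% of named genes), and in recovered cells 6 were higher and 0 lower (24.0% and 7.57%). Cldn4, a tightening claudin, was at 1330 and 1111 CPM and then 1984 and 1961 CPM, against at most 1172 CPM elsewhere (1.27 ± 0.23, adjusted p = 0.0014). Against the mean of the other tissues Cldn4 was called in recovered cells (1.77 log2) but not before transplantation (0.75). Cldn23 was at 72.6 and 59.0 CPM and then 179 and 158 CPM, with thymus cells at 56.5 to 89.0 CPM (1.53 ± 0.38, adjusted p = 0.01). Before transplantation Cldn23 was not called against thymus cells (0.10 log2, adjusted p = 0.47). Its pooled call was lost without the vagina samples (0.051). Cldn7 went from 60.6 and 67.7 CPM to 5.55 and 5.08 CPM in bladder, but trachea cells before transplantation had 60.4 and 59.3 CPM. Its call (2.97 ± 0.79, adjusted p = 0.014) was lost with edgeR (adjusted p = 0.22), with DESeq2 (0.26) and without either bladder sample before transplantation (0.054 and 0.053). Cldn1 was lower in bladder before transplantation, at 111 and 50.3 CPM (-2.71), and not called in recovered cells, at 734 and 756 CPM. Cdh1, the adherens junction cadherin of epithelia, was named after its values were seen: it was at 2434 and 2140 CPM and then 1781 and 1722 CPM, above the 804 to 1369 CPM of all other samples. Its difference of 1.02 ± 0.14 (adjusted p = 0.00015) lay close to the fold threshold and fell under it without the first bladder sample before transplantation (0.96) and without 3 of the other samples.

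Piezo2, a stretch-activated channel gene through which the bladder senses filling, was at 126 and 110 CPM before and 181 and 162 CPM after transplantation. Trachea cells were next with 33.0 to 47.4 CPM, and thymus cells before transplantation had 0.0799 and 0.0844 CPM. The difference was 4.80 ± 0.92 log2 (adjusted p = 0.0018). Atp12a, a proton-potassium pump gene, was below 0.5 CPM in all samples but the recovered bladder cells, which had 6.08 and 5.34 CPM. Its pooled call (3.62 ± 0.89, adjusted p = 0.009) was matched by a call in recovered cells (5.50) but none before transplantation, and it was lost with correlated samples (0.24) and without either recovered bladder sample (0.086 and 0.083). Aqp3, a water and glycerol channel gene, was at 144 to 381 CPM in bladder and did not reach the fold threshold. Of 9 named xenobiotic enzyme genes 4 were higher and 0 lower in the pooled comparison (18.4% and 2.7% of named genes). Before transplantation 3 were higher and 1 lower (28.0% and 15.5% of named genes), and in recovered cells 7 were higher and 0 lower (24.0% and 7.57%). Among the 4 higher in the pooled comparison was the glutathione transferase gene Gsta4 with 50.3 to 69.2 CPM in bladder against 11.2 to 55.2 CPM (1.5 ± 0.33, adjusted p = 0.0041). The calls of Adh7, Aldh3b1 and Cyp1b1 were lost with correlated samples (adjusted p = 0.33, 0.14 and 0.17). Those of Adh7 and Cyp1b1 were also lost without a bladder sample, a recovered one for Adh7 (0.12 and 0.15) and one from before transplantation for Cyp1b1 (0.15 and 0.083).

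Other genes named by size were Capn8, Adcy8, Calcb, Clic5, Wipf1, Adam28, Cpne8 and Cyba, which have varied functions. Capn8, a calpain protease gene of mucus cells of the stomach, was at 8.45, 7.73, 9.57 and 8.72 CPM in the 4 bladder samples and below 1 CPM in the 12 others. Its difference of 5.27 ± 0.35 (adjusted p = 9.4e-08) had a change between rounds of -0.18 ± 0.36 (adjusted p = 0.72). Adcy8, a calcium-stimulated adenylyl cyclase gene, was at 23.2 and 25.4 CPM and then 13.0 and 13.3 CPM, against at most 3.46 CPM (4.25 ± 0.42, adjusted p = 5.8e-06). Calcb, which encodes the neuropeptide CGRP beta, was at 136 and 69.7 CPM before and 7.52 and 7.64 CPM after transplantation, and trachea cells before transplantation had 20.1 and 15.6 CPM. Clic5, a chloride channel family gene, went from 43.0 and 42.5 CPM to 119 and 113 CPM, above the 19.5 CPM of the highest other sample. Wipf1, which stabilizes WASP family proteins, was at 35.4 to 60.4 CPM in bladder and at most 21.7 CPM elsewhere. Adam28, Cpne8 and Cyba had differences of 4.88 ± 0.75, 4.32 ± 0.58 and 4.47 ± 0.84 log2 (adjusted p = 0.00034, 0.00011 and 0.0015). Cyba, the p22phox subunit of NADPH oxidases, was at 103 and 84.8 CPM and then 10.6 and 9.16 CPM, below the 30.3 and 30.0 CPM of trachea cells before transplantation.

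Outside the rule for names, and chosen after their values were seen, Lgals4, Slc6a14 and Mme were also higher in all 6 comparisons. Lgals4, a galectin gene of gut epithelium, was at 31.0 and 60.9 CPM and then 25.8 and 21.6 CPM, against at most 6.27 CPM (3.70 ± 0.29, adjusted p = 5.4e-07). Slc6a14, an amino acid transporter gene, was at 132 and 96.7 CPM and then 24.0 and 21.6 CPM, against at most 17.2 CPM (3.06 ± 0.26, adjusted p = 1.2e-06). Mme, the membrane peptidase neprilysin, was at 27.4 and 16.9 CPM and then 33.4 and 36.7 CPM, against at most 6.39 CPM. Bmp2, a bone morphogenetic protein gene, was at 13.7 to 20.8 CPM in bladder and up to 11.6 CPM in recovered vagina cells, with differences of 2.63 and 2.64 log2 in the 2 rounds. Disp1, which releases hedgehog ligands, was the 1 of 4 named hedgehog genes called in the pooled comparison (18.4% of named genes higher, 2.7% lower). It was at 31.4 and 24.9 CPM and then 13.6 and 15 CPM against at most 13.2 CPM (1.03 ± 0.15, adjusted p = 0.00025). Disp1 fell under the fold threshold without the first bladder sample before transplantation (0.85), and it was not called in recovered cells (0.60). Before transplantation 2 hedgehog genes were higher and 1 lower (28.0% and 15.5% of named genes). In recovered cells 0 were higher and 1 lower (24.0% and 7.57%).

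**Figure D3:**
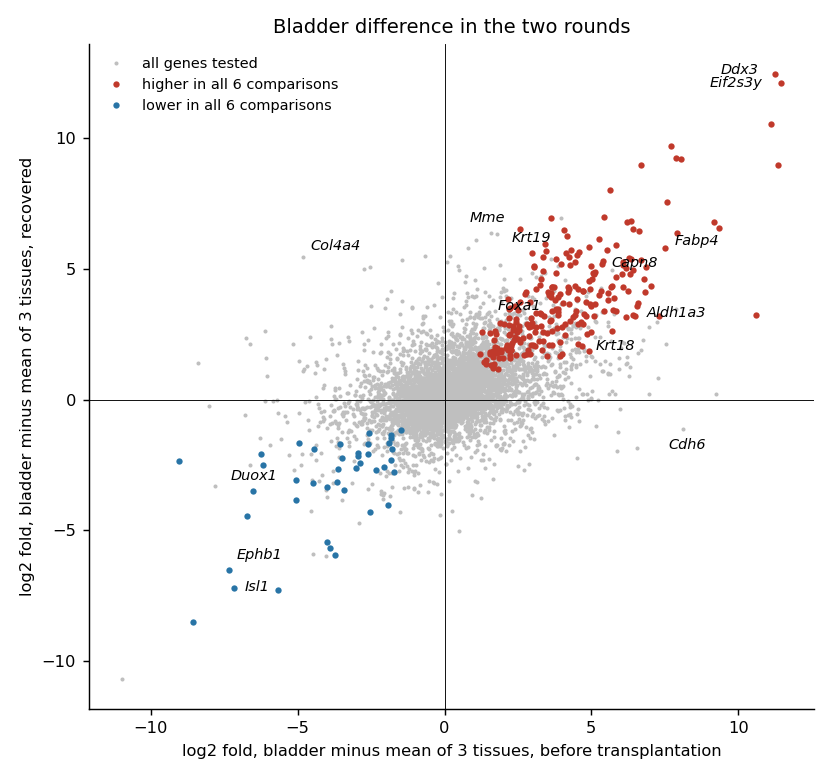
Log2 difference between bladder and the mean of trachea, vagina and thymus before transplantation (horizontal axis) and in recovered cells (vertical axis) for the 13192 genes tested; red points are the 239 genes higher and blue points the 41 genes lower in all 6 comparisons. Fabp4, Foxa1 and the keratins lie in the upper right, Isl1, Ephb1 and Duox1 in the lower left, and Col4a4 and Cdh6 off the diagonal.

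Fewer named genes were lower. The rule for names gave Duox1, Il1rl1, Chst14 and Artn, which were lower in all 6 comparisons. Duox1, which makes hydrogen peroxide at airway and other mucosal surfaces, was at 2.40 and 3.26 CPM before and 16.1 and 15.8 CPM after transplantation, against 32.6 to 245 CPM elsewhere (-3.88 ± 0.76, adjusted p = 0.002). Chst14, a dermatan sulfate enzyme gene, was at 2.73 to 6.46 CPM against 7.35 to 34.6 CPM (-2.25 ± 0.52, adjusted p = 0.0062). Artn, a ligand of the GDNF family that acts on sensory neurons, was at 0.788 to 4.12 CPM against 5.39 to 11 CPM (-1.83 ± 0.29, adjusted p = 0.00045, but 0.064 with correlated samples). Il1rl1, an interleukin receptor gene, was at 12.1 and 3.65 CPM and then 0.718 and 0.911 CPM, overlapped with recovered trachea cells at 9.94 CPM, and lost its call (-3.03 ± 0.97, adjusted p = 0.036) without any 1 bladder sample (0.07 to 0.13). Ephb1, an ephrin receptor gene named after its values were seen, had 1 count in the 4 bladder samples together and 1209 in the 12 others, a ratio of 375 (95% exact interval 67.2 to 14829, for counting error only).

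Chemokine ligands, the secreted proteins that draw leukocytes, were often higher in bladder cells. The list was chosen after its values were seen and takes all 14 genes with a Ccl or Cxcl symbol, of which 9 were higher, 0 lower and 5 not called, beside 18.4% and 2.7% of all named genes. Their median log2 difference was 2.17, beside 0.24 over all named genes. Before transplantation 11 were higher and 1 lower (28.0% and 15.5% of named genes), and in recovered cells 8 were higher and 0 lower (24.0% and 7.57%). With correlated samples 6 of the 9 stayed called, without Ccl7, Cxcl12 and Cxcl6. Cxcl11, Ccl20 and Cxcl6 were higher in all 6 comparisons. Cxcl11, which draws activated T cells through Cxcr3, was at 12.5 and 5.99 CPM before and 8.76 and 10.7 CPM after transplantation, against at most 1.35 CPM (3.80 ± 0.32, adjusted p = 1.3e-06). Ccl20, the ligand of Ccr6, was at 43.3 and 26.4 CPM and then 7.47 and 9.72 CPM, against at most 6.17 CPM (3.95 ± 0.50, adjusted p = 5.9e-05).

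Cxcl6, Cxcl1, Cxcl2 and Cxcl3 encode ligands that draw neutrophils. Cxcl6 was at 3246 and 1864 CPM in bladder cells before transplantation and at 140 and 147 CPM in recovered cells, while trachea cells before transplantation had 494 and 428 CPM. Its call (3.15 ± 1.01, adjusted p = 0.037) was lost without any 1 of the 4 bladder samples (0.058 to 0.13) and with correlated samples (0.064). Cxcl1 was at 291 and 362 CPM and then 275 and 292 CPM, against at most 218 CPM (2.11 ± 0.42, adjusted p = 0.0023). Cxcl2 was at 160 and 104 CPM and then 139 and 140 CPM, against at most 93.1 CPM (2.24 ± 0.35, adjusted p = 0.00043). For both, trachea and thymus cells had less in recovered cells than before, and the difference grew between rounds by 1.42 ± 0.16 and 1.40 ± 0.20 (adjusted p = 9.1e-06 and 8.9e-05). Cxcl3 was at 1625 and 1041 CPM and then 328 and 342 CPM but missed the threshold (1.92 ± 0.72, adjusted p = 0.069), with recovered thymus cells at 384 and 365 CPM. Cxcl1, Cxcl2, Cxcl3 and Cxcl6 are near relatives, and reads that fit more than 1 of them were not counted.

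Cxcl10, also a Cxcr3 ligand, was at 71.2 and 36.1 CPM and then 301 and 333 CPM, against at most 45.4 CPM (2.79 ± 0.59, adjusted p = 0.0035), and its difference grew by 3.54 ± 0.29 between rounds. Ccl2, which draws monocytes, went from 14.5 and 14.8 CPM to 2.06 and 2.30 CPM, with at most 2.23 CPM in the others (2.97 ± 0.58, adjusted p = 0.002). Ccl7, at 0.431 to 2.14 CPM in bladder, and Cxcl12, at 0.0434 to 4.77 CPM, were called too, but lost their calls with edgeR (adjusted p = 0.12 and 0.16), with correlated samples (0.31 and 0.25) and without either bladder sample before transplantation (0.14 and 0.087 for Ccl7, 0.18 and 0.2 for Cxcl12). Of related immune genes, Gbp5, a guanylate-binding protein gene induced by interferon, was at 35.3 and 15.1 CPM and then 8.14 and 6.73 CPM, against at most 2.30 CPM (4.10 ± 0.51, adjusted p = 5.3e-05). C3 and Card9 were named after their values were seen. C3, the central complement component, was at 1434 and 1043 CPM and then 61.2 and 56.1 CPM, with trachea cells before transplantation at 121 and 106 CPM (3.84 ± 0.58, adjusted p = 0.00028). Card9, an adaptor of pattern recognition receptors, was at 31.5 and 39.1 CPM and then 20.5 and 18.0 CPM, against at most 3.94 CPM (3.62 ± 0.27, adjusted p = 3.4e-07). Of the 5 leukocyte genes listed, Cd68 alone could be named, and it was at 13.5 to 55.4 CPM in bladder and 11.3 to 63.3 CPM elsewhere. The part of leukocytes in these levels was not tested.

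**Figure D4:**
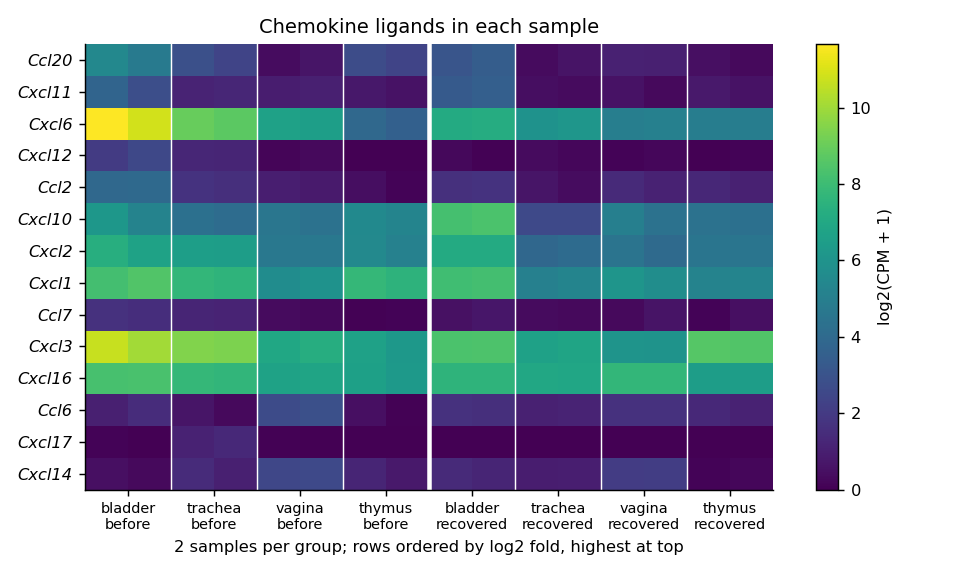
Log2(CPM + 1) of the 14 named chemokine ligand genes (rows, ordered by log2 difference) in the 16 samples (columns, 2 per group; the thick line parts cells before transplantation from recovered cells). Bladder columns are brighter than those of the same round for Ccl20, Cxcl11, Cxcl6, Cxcl2 and Cxcl1, and Cxcl10 is brightest in recovered bladder cells.

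The sequences before the start sites of these genes are shown because 9 of the 14 ligands were called higher. RefSeq promoters of assembly GRCr8 were at hand for 8 of the 9 higher and 4 of the 5 uncalled ligands, and the 250 bases before the start were searched on both strands for GGGA followed after 4 free bases by CC (read on the other strand as GG, 4 free bases and TCCC), a loose form of the letters that NF-kB proteins bind. The letters were in 7 of the 8 promoters of higher ligands, in 0 of the 4 of uncalled ones, in 26.1% of the 1445 promoters matched to named genes tested and in 16.8% of all 27457 promoters. The letters can match both strands or overlapping stretches, and each promoter was counted once. No promoter was at hand for Ccl2, called higher, or for Cxcl3, uncalled in the pooled comparison but higher in both rounds (2.70 and 1.30 log2). Cxcl1, Cxcl2, Cxcl6, Cxcl10 and Cxcl11 all lie on chromosome 14, and the near relatives among them are not independent. The split between higher and uncalled ligands was not tested. Of the 52 promoters matched to the 71 named genes higher in all 6 comparisons, 19 (36.5%) held the letters. A match is a description of letters and not of a bound site. The promoters shown next all hold the letters. Cxcl12, the higher ligand without them, is left out, as is Ccl7, which has them. The last 150 bases before the start are given 5′ to 3′ on the gene's strand for the 3 ligands higher in all 6 comparisons, for Cxcl1, Cxcl2 and Cxcl10, and for Gbp5, with matches in capitals. They lie at chr14:15973578-15973727 (+) for Cxcl11, chr9:91837009-91837158 (+) for Ccl20, chr14:17596418-17596567 (-) for Cxcl6, chr14:17479322-17479471 (-) for Cxcl1, chr14:17467256-17467405 (-) for Cxcl2, chr14:15988916-15989065 (+) for Cxcl10 and chr2:233910849-233910998 (+) for Gbp5.
Cxcl11: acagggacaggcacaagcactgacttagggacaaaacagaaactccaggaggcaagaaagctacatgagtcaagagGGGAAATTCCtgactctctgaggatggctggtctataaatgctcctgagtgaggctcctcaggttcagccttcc
Ccl20: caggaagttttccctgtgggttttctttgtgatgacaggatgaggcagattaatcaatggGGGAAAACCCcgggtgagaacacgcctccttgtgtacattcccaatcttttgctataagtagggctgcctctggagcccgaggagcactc
Cxcl6: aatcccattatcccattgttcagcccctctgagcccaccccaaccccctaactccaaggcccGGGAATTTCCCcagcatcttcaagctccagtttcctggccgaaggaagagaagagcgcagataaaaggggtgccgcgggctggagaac
Cxcl1: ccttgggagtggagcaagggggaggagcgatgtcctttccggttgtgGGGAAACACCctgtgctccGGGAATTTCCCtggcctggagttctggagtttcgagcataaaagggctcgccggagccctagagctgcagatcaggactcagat
Cxcl2: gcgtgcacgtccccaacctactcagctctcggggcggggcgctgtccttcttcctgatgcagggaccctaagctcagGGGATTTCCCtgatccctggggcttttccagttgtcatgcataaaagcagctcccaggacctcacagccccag
Cxcl10: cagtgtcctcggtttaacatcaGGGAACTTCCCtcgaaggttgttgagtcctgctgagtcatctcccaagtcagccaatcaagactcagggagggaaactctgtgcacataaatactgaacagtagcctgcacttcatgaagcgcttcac
Gbp5: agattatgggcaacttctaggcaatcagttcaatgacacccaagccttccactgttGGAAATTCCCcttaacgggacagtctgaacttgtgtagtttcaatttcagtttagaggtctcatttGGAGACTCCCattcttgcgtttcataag
Counted back from the start site, the capitals begin at -74 in Cxcl11, at -90 in Ccl20 and at -73 in Cxcl2. The letters TGTTTAC, which forkhead factors such as Foxa1 bind, were searched in the same way. They were in 1 (1.92%) of the 52 promoters matched to the 71 named genes higher in all 6 comparisons. Of the promoters matched to named genes tested 2.56% held them, and of all promoters 3.25%.

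The difference between bladder and the other tissues changed between rounds for 2258 genes (17.1%), 1245 of which moved up and 1013 down in bladder relative to the others. Of the 239 genes higher in all 6 comparisons, 79 were among them, 26 with a larger and 53 with a smaller difference in recovered cells. The named genes with the largest falls were Cdh6, Ifitm1, Fam107a, Bcat1 and Ass1. Cdh6, a cadherin of the kidney and other developing epithelia, was at 49.6 and 39.2 CPM in bladder cells before transplantation and had 0 counts in both recovered samples, where the floor allows up to 0.144 CPM. Ass1, which makes argininosuccinate for arginine synthesis, went from 160 and 134 CPM to 4.4 and 4.3 CPM, and its difference fell by 4.96 on the log2 scale (SE 0.22, adjusted p = 3.4e-09). Bcat1, an enzyme of branched amino acids, was at 8.41 and 14.8 CPM before, as in trachea cells with 13.7 and 14.0 CPM, and at 0 and 0.174 CPM after transplantation. Fam107a, an actin-associated stress gene, went from 5.33 and 6.29 CPM to under 0.1 CPM. Ifitm1, an interferon-induced membrane protein gene, went from 18.7 and 6.51 CPM to under 0.1 CPM, and the change of its difference (-5.40 ± 1.45, adjusted p = 0.0079) lost its call without the second recovered bladder sample (0.053). The changes of Cdh6 and Fam107a were not called by edgeR, which gave adjusted p near 1 for both. The reason was not tested.

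Large rises were those of Col4a4, Col4a3, Dmkn and Fads2l1. Col4a4 and Col4a3 encode basement membrane collagen chains that assemble into 1 trimer with the alpha 5 chain, and their RefSeq start sites on GRCr8 chromosome 9 face away from each other with 412 bases between them. Col4a4 was at 0.263 and 0.477 CPM in bladder cells before transplantation and at 19.9 and 20.7 CPM in recovered cells. Col4a3 was at 0.263 and 0.0434 CPM and then at 6.08 and 5.25 CPM. In vagina cells the order was the opposite, with 54.3 and 50.5 CPM of Col4a4 before and 0.0844 and 0.105 CPM after transplantation, and 9.46 and 8.15 CPM of Col4a3 before and 0 after. Thymus cells also fell, from 6.75 and 10.0 CPM of Col4a4 to 0.381 and 0.461 CPM. Their Col4a3 went from 0.799 and 3.17 CPM to 0.254 and 0.0659 CPM. Trachea cells had 2.30 and 2.86 CPM of Col4a4 before and 2.13 and 1.87 CPM after transplantation. The bladder difference of Col4a4 went from -4.81 to 5.45 and that of Col4a3 from -3.62 to 5.86 (changes of 10.26 ± 0.47 and 9.48 ± 1.03, adjusted p = 4.1e-09 and 7.4e-06). The 250 bases before the Col4a3 start, at chr9:91323740-91323989 (+), lie between both starts and are shown because the pair moved together:
Col4a3: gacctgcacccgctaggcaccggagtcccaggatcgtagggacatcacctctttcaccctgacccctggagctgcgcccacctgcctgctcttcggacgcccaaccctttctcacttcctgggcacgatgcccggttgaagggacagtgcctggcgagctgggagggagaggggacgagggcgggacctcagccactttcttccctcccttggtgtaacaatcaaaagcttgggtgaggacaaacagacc
Dmkn, the epidermal secreted protein dermokine, went from 0.300 and 0.174 CPM to 91.8 and 83.8 CPM and passed recovered vagina cells at 45.7 and 45.3 CPM. Fads2l1, a fatty acid desaturase-like gene, went from 0.113 and 0.0434 CPM to 22.7 and 24.2 CPM. Recovered thymus cells had more Fads2l1 than bladder cells, at 142 and 133 CPM.

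**Figure D5:**
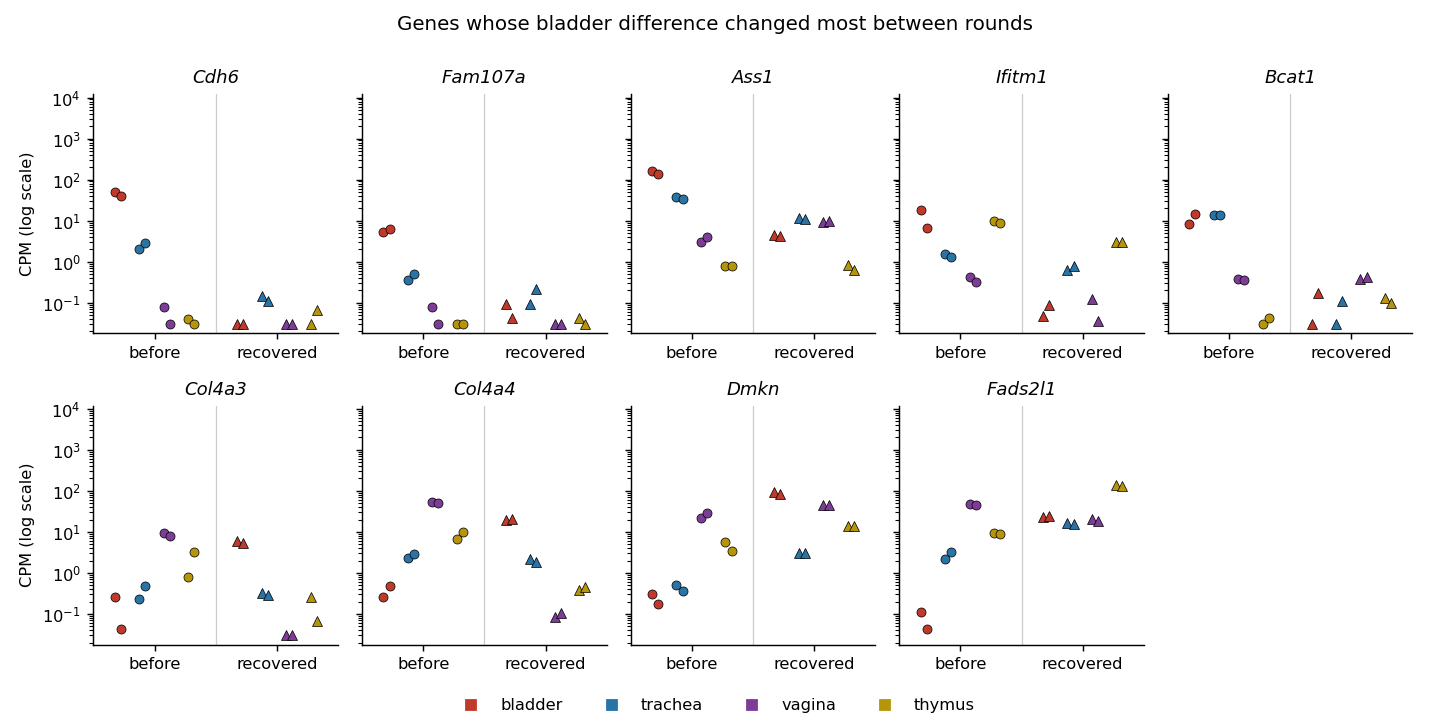
CPM on a log scale in each of the 16 samples for the 5 genes with the largest fall (upper row) and 4 with a large rise (lower row) of the bladder difference between rounds; circles are cells before transplantation, triangles recovered cells, and values under 0.03 CPM are drawn at 0.03. Recovered bladder cells lie at the lower edge for Cdh6 and at no more than 0.0957 CPM for Fam107a. Bladder cells gained Dmkn, Fads2l1, Col4a3 and Col4a4, while Col4a3 and Col4a4 fell in vagina and thymus cells.

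Stromal and cycling markers were set beside these results. The 3 named fibroblast genes, Col1a1, Col3a1 and Dcn, summed to 190 to 247 CPM in bladder cells before transplantation, to 19.8 to 269 CPM in the other tissues of that round, and to 25.2 to 27.7 CPM in recovered bladder cells, beside 21.6 to 41.5 CPM in the other recovered cells. Col1a1 was at 177 and 128 CPM in bladder and 154 and 156 CPM in trachea cells before transplantation and at 13.6 to 16.7 CPM in vagina and thymus cells of that round. Genes that were high in both bladder and trachea cells before transplantation and low in recovered cells, such as Krt18, Cxcl6, C3, Calcb, Cyba and Cldn7, moved with these markers, whose part in those levels was not tested. In recovered cells the summed fibroblast markers of bladder lay within the range of the others. The differences of Foxa1, Capn8, Fabp4 and Piezo2 in that round were 3.71, 5.19, 5.77 and 4.59 log2. These genes are examples picked by no rule, and the part of stromal cells in their levels was not tested. Acta2, the 1 named smooth muscle gene, was at 8.07 and 10.4 CPM before and 4.93 and 4.51 CPM after transplantation, with 16.2 and 15.1 CPM in recovered thymus cells. Birc5 and Ccnb1, genes of dividing cells, were at 8.46 to 19.1 and 19.6 to 38.4 CPM in bladder and were not called. No endothelial or basal keratin gene of the lists could be named.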

How the data were processed

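RNA of sorted rat cells was sequenced with the TruSeq Stranded mRNA kit, the 2 samples of a group being those with the best RNA. The authors trimmed reads (Cutadapt 1.8), aligned them to Rnor 6.0 with STAR 2.5.2b and counted them with HTSeq 0.6.1. The deposited files hold raw counts per gene and sample. Rows that name no gene held 14.5 to 19.5% of uniquely aligned reads and were left out.

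After the study's methods, genes that reached 1 CPM in any sample were tested with TMM scaling and voom, with limma 3.58.1 and edgeR 4.0.16 in R 4.3.3. The pooled comparison had round and bladder as terms (13 residual degrees of freedom), and all others a mean for each of the 8 groups (8 residual degrees of freedom). Adjustment over all genes followed Benjamini and Hochberg. Standard errors are those of limma. The fits were tested on simulated data with known changes.

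The files give Ensembl identifiers. Symbols came from 2311 pairs of identifier and symbol in the study's supplementary tables, and 70 of 262 listed symbols could be paired. Placeholder symbols (AABR, LOC, RGD, AC and Rn60 names) were not used. Promoters came from RefSeq, assembly GRCr8.

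Named were the listed genes, the 15 higher and up to 10 lower genes with the largest difference called in all 6 comparisons with at least 5 CPM in each sample of the higher side, the 5 with the largest change between rounds each way where both bladder samples of a round reached 5 CPM, and transcription factors called in all 6 comparisons. Members and lists were chosen with earlier results of these data known. The chemokine list and Ephb1, Mme, Lgals4, C3, Card9, Bmp2, Cdh1 and Slc6a14 were chosen after their values were seen. Some genes that meet these rules are not reported here.

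Alternatives were edgeR's quasi-likelihood test, DESeq2 1.42.0, other scaling, filters and thresholds, a replicate block, correlated or summed samples, and leaving out each sample or tissue.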

Additional observations from a re-analysis of the deposited data

Results flagged for a closer look

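The bladder difference changed between rounds, by limma voom's test of the round 2 difference minus the round 1 difference, for the 9 named genes given here on the log2 scale. It was lower after transplantation for Cdh6 (-9.22), Ifitm1 (-5.40), Fam107a (-5.37), Bcat1 (-5.32) and Ass1 (-4.96). It was higher after transplantation for Fads2l1 (6.21), Dmkn (6.68), Col4a3 (9.48) and Col4a4 (10.26). These genes were picked for the size of their change, and 17.1% of all genes tested changed. Cdh6, Fam107a, Bcat1 and Col4a3 had samples with 0 counts, so their fitted values depend on the prior count.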

How the results depend on the processing

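The 6 counts of called genes were recomputed under the alternatives, except that correlated or summed samples, averaged group means and leaving out a tissue were run for the pooled comparison alone. With a log2 change of at least 2 they were 642 (pooled), 1197 (before transplantation), 781 (recovered), 403 (both rounds), 111 (all 6 comparisons) and 944 (changed between rounds). The pooled count of 1266 became 525 with correlated samples, 116 with summed counts and 2057 with a mean for each group averaged over rounds. Leaving out 1 sample gave 825 to 1326 pooled, 2459 to 2803, 1705 to 1910, 911 to 1064, 258 to 301 and 2021 to 2337 in the same order. DESeq2 called 887 higher and 444 lower in the pooled comparison, and edgeR 809 and 278. The unfiltered table gave 1582 pooled calls. The pooled differences of Eya1 and Krt10, not called, turned negative with edgeR (-0.0946 and -0.347) and with DESeq2 (-0.0718 and -0.394). The cause of these changes was not tested.

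Same-numbered samples of different groups deviated together with correlations of -0.113 to 0.148 over 28 pairs of groups, so the numbers were not taken to pair samples. With the replicate number as a block the 6 counts were 1192, 2663, 1904, 1015, 284 and 2284.

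For a gene at 3 counts or fewer in a sample, the depth leaves the level imprecise.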
